A study of Mus musculus with 18 samples.

Results

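The genes examined here were 10 Toll-like receptor genes, Tlr1, Tlr2, Tlr3, Tlr4, Tlr5, Tlr6, Tlr7, Tlr8, Tlr9 and Tlr13, without Tlr11 and Tlr12. They were among 21938 protein-coding genes in the GENCODE M21 annotation of the mouse genome build mm10. Each was described by the accessible chromatin in its gene body and within 50 kb on either side of its most upstream start site. These windows held 120 of 82391 reference peaks, 123 of 84660 summits and 84 of 59617 extended regions. The members were named by gene family and not ranked by a measured value, but earlier results of these data were known when they were chosen. 10 of the peaks lay in the windows of both Tlr1 and Tlr6, and the counts over all genes took them once.

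The accessible sites had been mapped by ATAC-seq, an assay that uses the transposase Tn5 to tag open DNA with adapters for sequencing. It was applied to bone marrow-derived macrophages (BMDMs) grown from the marrow of wild type male C57/BL6 mice of 6 to 8 weeks. All cells received DMSO for 1 h and were then left untreated or given LPS or IL-4, each at 10 ng/mL, for 30 min, 1 h, 2 h or 4 h, which made 9 groups of 2 libraries (18 libraries in all). The authors pooled the libraries into a single catalog of 3 lists, so no value belongs to a group, a time point or a replicate, no depth per library can be given, and a peak open after stimulation cannot be told apart from a peak open in untreated cells. The score of a summit is the number that the authors' peak list carries for it. Its scale is not stated, and it is used here only to rank summits. No difference described below has a replicate error or a test.

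Toll-like receptors are innate immune sensors that recognise conserved molecules of microbes and signal through adaptor proteins that bind their cytoplasmic TIR domains. Tlr1, Tlr2, Tlr4, Tlr5 and Tlr6 act at the cell surface, where they detect components of the bacterial envelope and flagellum. Tlr3, Tlr7, Tlr8, Tlr9 and Tlr13 reside in endosomes and detect nucleic acids. Macrophages use these receptors to sense infection, and LPS, the bacterial stimulus of this study, is the ligand of Tlr4.

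The sequences below are those around start site summits of 6 receptor genes. They are shown because the start sites differed in score and in the motifs they held. Each is the part of the 201 bases centred on the summit that lies outside annotated exons, read 5′ to 3′ on the strand of the gene (mm10, sequence of assembly GRCm38.p6). Capitals mark a match to any of the 11 motifs searched. Tlr4 had the highest start site score of the family and no match, Tlr1 and Tlr6 held a PU.1/ETS match, Tlr6 also a GAS match, Tlr9 an AP-1 match, and Tlr7 and Tlr8 a C/EBP match. The Tlr1 sequence is that of the summit nearest to the start site (534), whereas its highest start site summit (593) held a C/EBP match and no PU.1/ETS match. The Tlr6 sequence is that of the highest summit (1670), whereas the nearest (706) held a GAS match and no PU.1/ETS match. By either choice applied to both genes, therefore, only 1 of them held the PU.1/ETS word. The summit window of Tlr9 also held a PU.1/ETS match, which lies in the exonic part that is not printed.
Tlr4 (chr4:66827489-66827583, plus strand): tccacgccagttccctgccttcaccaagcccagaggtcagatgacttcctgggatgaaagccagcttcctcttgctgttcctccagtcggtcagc
Tlr1 (chr5:64933564-64933729, minus strand): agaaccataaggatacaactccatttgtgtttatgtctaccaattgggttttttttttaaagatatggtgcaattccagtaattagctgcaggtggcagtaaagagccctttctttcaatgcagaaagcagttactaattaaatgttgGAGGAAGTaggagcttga
Tlr6 (chr5:64960953-64961153, minus strand): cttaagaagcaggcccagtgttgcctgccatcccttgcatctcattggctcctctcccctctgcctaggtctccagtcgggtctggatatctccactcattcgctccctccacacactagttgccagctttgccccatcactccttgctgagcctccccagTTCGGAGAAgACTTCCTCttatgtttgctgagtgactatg
Tlr9 (chr9:106222453-106222597, plus strand): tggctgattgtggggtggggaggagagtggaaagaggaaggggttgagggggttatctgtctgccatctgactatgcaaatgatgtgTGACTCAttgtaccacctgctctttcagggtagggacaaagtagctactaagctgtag
Tlr7 (chrX:167330559-167330654, minus strand): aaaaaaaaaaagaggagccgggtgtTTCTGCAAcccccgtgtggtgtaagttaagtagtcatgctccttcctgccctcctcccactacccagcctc
Tlr8 (chrX:167264330-167264418, minus strand): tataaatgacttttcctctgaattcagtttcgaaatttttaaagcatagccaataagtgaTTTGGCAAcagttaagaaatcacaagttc

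A further 4 sequences come from peaks away from start sites. They are shown because they held the highest score between genes (Tlr2), different motifs in the same window (Tlr4 and Tlr5) or the highest score with a PU.1/ETS match away from a start site (Tlr8). The Tlr4 sequence lies in an intron and holds a PU.1/ETS and a STAT6 match. The Tlr5 sequence lies upstream of the gene and holds a PU.1/ETS match and a pair of AP-1 matches.
Tlr2 (chr3:83863078-83863278, minus strand): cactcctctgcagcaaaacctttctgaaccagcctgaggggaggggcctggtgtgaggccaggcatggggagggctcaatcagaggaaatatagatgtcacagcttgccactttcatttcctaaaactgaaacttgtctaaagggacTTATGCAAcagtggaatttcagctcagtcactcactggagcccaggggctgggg
Tlr4 (chr4:66852068-66852268, plus strand): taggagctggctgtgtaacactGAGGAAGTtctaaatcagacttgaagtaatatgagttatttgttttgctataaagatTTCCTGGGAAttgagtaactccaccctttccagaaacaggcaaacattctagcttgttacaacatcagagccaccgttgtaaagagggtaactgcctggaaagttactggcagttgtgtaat
Tlr5 (chr1:182944789-182944989, plus strand): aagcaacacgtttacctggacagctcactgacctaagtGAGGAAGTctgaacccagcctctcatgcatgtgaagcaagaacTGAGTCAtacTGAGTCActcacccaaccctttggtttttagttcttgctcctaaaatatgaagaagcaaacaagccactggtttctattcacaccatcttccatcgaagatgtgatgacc
Tlr8 (chrX:167229422-167229622, minus strand): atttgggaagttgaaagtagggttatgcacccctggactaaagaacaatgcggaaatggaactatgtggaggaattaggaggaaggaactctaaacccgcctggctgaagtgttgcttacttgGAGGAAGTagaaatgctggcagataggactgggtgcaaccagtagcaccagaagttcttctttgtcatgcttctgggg

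All 10 receptor genes had a reference peak within 1000 bp of an annotated start site, compared with 56.5% of all protein-coding genes. Of the mouse family genes left out, Tlr11 also had such a peak and Tlr12 did not. In 9 of the 10 members a peak lay over a start site itself, compared with 49.7% of all protein-coding genes. The exception was Tlr5, the receptor for flagellin, whose only peak near the start (chr1:182953790-182953983, score 934) ended 805 bp upstream of it and had its summit 922 bp upstream. For the 3 members on chromosome X, Tlr7, Tlr8 and Tlr13, the share of X-linked protein-coding genes with a start site peak was 36.1%.

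The start site summits of the family spread widely in score. Of the start scores of all protein-coding genes, 86.5% were lower than that of Tlr4 and 4.85% lower than that of Tlr8. The score of the highest summit within 1000 bp of a start site was 1982 at Tlr4 and 1877 at Tlr2, both above the upper quartile of all protein-coding genes with such a peak (1799). Tlr4 is the LPS receptor, and Tlr2 pairs with Tlr1 or Tlr6 to bind bacterial lipoproteins. Tlr6 (1670) lay above the median of 1456, and Tlr9 (1406), the receptor for unmethylated CpG DNA, just below it. The other 6 members lay below the lower quartile of 1071. Their scores were 934 at Tlr5, 759 at Tlr13, 748 at Tlr3, 654 at Tlr7, 593 at Tlr1 and 563 at Tlr8. The median was 846 over the 10 members, 1670 over the cell surface receptors and 748 over the endosomal receptors, but the ranges of the groups overlapped (593 to 1982 and 563 to 1406), and every endosomal receptor except Tlr8 lay inside the range of the cell surface receptors. On chromosome X, where the median over all protein-coding genes was 1260 and the lower quartile 870, the 3 endosomal members lay below that lower quartile. Of the start scores on chromosome X, 17.3% were lower than that of Tlr13, 10.2% lower than that of Tlr7 and 6.14% lower than that of Tlr8.

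**Figure D1:**
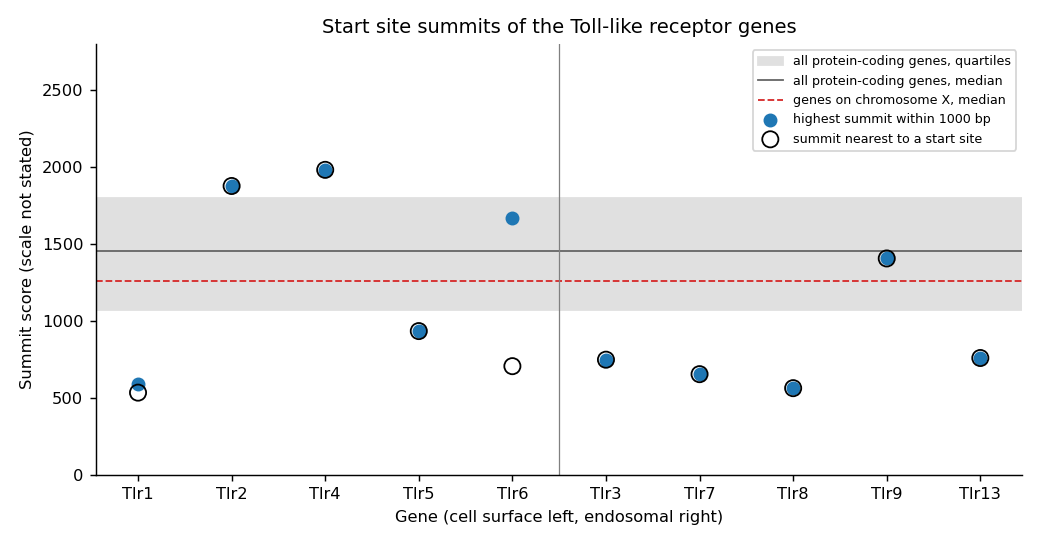
Score of the start site summit of each Toll-like receptor gene (vertical axis, scale not stated), with the highest summit within 1000 bp as a filled point and the summit nearest to a start site as a ring. The grey band and line are the quartiles and the median of all protein-coding genes with a start site peak, and Tlr2 and Tlr4 lie above the band while Tlr1, Tlr3, Tlr5, Tlr7, Tlr8 and Tlr13 lie below it.

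The choice of summit mattered for Tlr1 and Tlr6. At Tlr6 the peak over the start site (chr5:64959983-64960220) had a score of 706, and the summit of 1670 (chr5:64960859-64961379) lay 956 bp upstream. At Tlr1 the peak over the start site (chr5:64933445-64933740) had a score of 534. The summit of 593 lay in an intron, 1134 bp downstream of the most upstream start site but 332 bp from another. By the summit nearest to a start site, therefore, the scores of both partners of Tlr2 lay below those of Tlr2, Tlr4 and Tlr9. The median of the cell surface receptors, which was the Tlr6 value of 1670, became 934 by the nearest summit, while that of the endosomal receptors stayed at 748. The score of Tlr7 depended on the window, since it was 654 within 1000 bp but 1381 within 2500 bp, above the lower quartile of all genes with a window of 1000 bp. Elsewhere the highest summit was also the nearest to a start site. It lay 5 bp from the most upstream start site at Tlr4 (chr4:66827383-66827823), 4 bp at Tlr7 (chrX:167330462-167330623), 2 bp at Tlr13 (chrX:106143094-106143285) and 11 bp at Tlr8 (chrX:167264196-167264366). It was farther at Tlr2 (112 bp, chr3:83841240-83841779) and at Tlr9 (45 bp, chr9:106222404-106222705). At Tlr3, the receptor for double-stranded RNA, it lay 769 bp downstream of the most upstream start site but 65 bp from another of its 8 start sites, in an untranslated exon (chr8:45410228-45410490). That site also overlaps the noncoding gene Gm45542, so the peak cannot be assigned to Tlr3 alone.

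The start site summits of the family were poor in CpG. Within 100 bp of the highest summit, the ratio of observed to expected CpG was 0.53 at Tlr13, 0.496 at Tlr3, 0.463 at Tlr4, 0.431 at Tlr2 and 0.423 at Tlr7. It was lower at Tlr8 (0.292), Tlr6 (0.218), Tlr5 (0.201) and Tlr1 (0.0892), and the window at Tlr9 held no CpG. The highest summits of Tlr6 and Tlr1 were not over a start site. In their peaks over a start site the ratio was 0.58 at Tlr6 and 0.267 at Tlr1. All 10 members thus lay below the lower quartile of all protein-coding genes with a start site peak (0.585), whose median was 0.801. The median was 0.357 over the members. The share of G and C was lowest at Tlr8 (37.3%) and Tlr13 (38.8%) and highest at Tlr2 (64.7%), with a median of 50.5% over the members and 63.7% over all genes. The 10 macrophage marker genes, which define the cell type, had a median CpG ratio of 0.171, so that low values were not particular to the receptors.

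**Figure D2:**
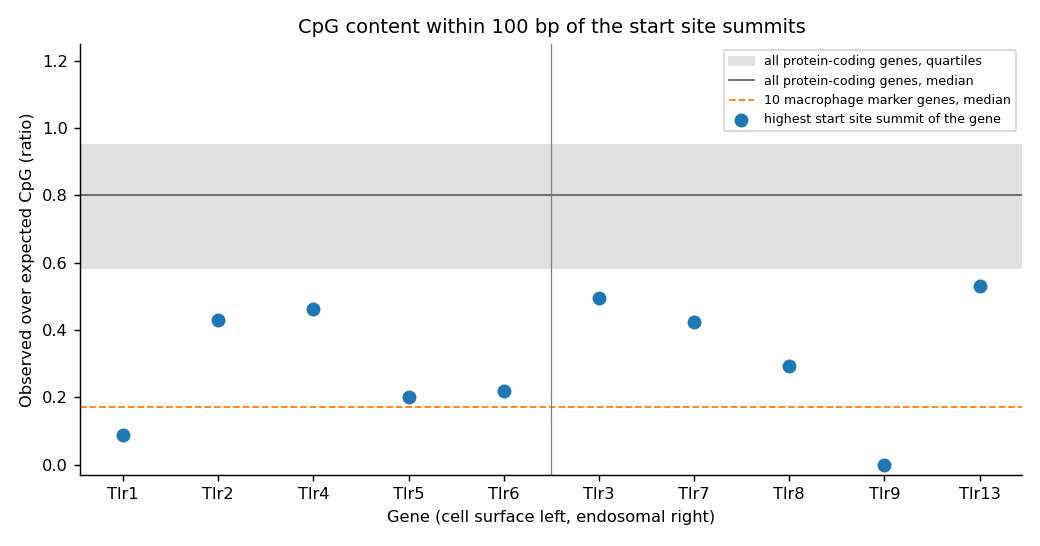
Ratio of observed to expected CpG within 100 bp of the highest start site summit of each gene (vertical axis), with the quartiles and median of all protein-coding genes as a grey band and line and the median of 10 macrophage marker genes as a dashed line. Every point lies below the grey band, from 0 at Tlr9 to 0.53 at Tlr13.

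The windows differed widely in how many accessible sites they held. Tlr9 had 22 reference peaks, Tlr1 19, Tlr2 18, Tlr13 15, Tlr5 13, Tlr7 12, Tlr4 and Tlr6 10 each, Tlr8 8 and Tlr3 3. These counts and their order depended on the window. Within 20000 bp Tlr2, Tlr7, Tlr9 and Tlr13 had 10 each and Tlr1 had 4, and within 100000 bp Tlr9 had 37 and Tlr8 35. The median of 12.5 compared with a median of 6 and an upper quartile of 12 over all protein-coding genes, whose windows were drawn in the same manner. 9 members had more peaks than the median gene and 5 had more than the upper quartile, while Tlr3 had fewer peaks than the median gene. On chromosome X the median gene had 1 peak, and 97.5% of X-linked genes had fewer peaks than Tlr13, 94.6% fewer than Tlr7 and 88% fewer than Tlr8. A longer gene has a longer window, and Tlr4 (102701 bp) was the only member whose body reached beyond 50 kb. The largest number in the window of any protein-coding gene was 409.

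**Figure D3:**
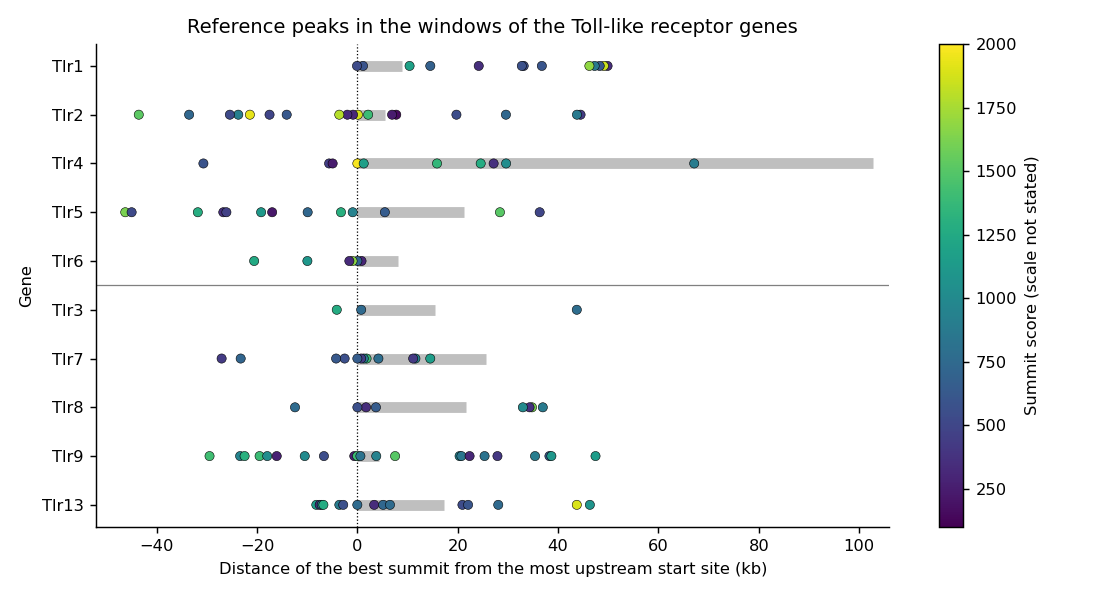
Position of each of the 120 reference peaks relative to the most upstream start site of its nearest Toll-like receptor gene (horizontal axis, kb, upstream to the left), with the gene body as a grey bar and the summit score as colour. The 10 peaks in the windows of both Tlr1 and Tlr6 are drawn once, at the nearer gene, and Tlr3 shows 3 peaks where Tlr9 shows 22.

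Most of the peaks lay outside the receptor genes. Of 120 peaks, 62 lay between genes, 19 in the body of a receptor gene, 18 within 1000 bp of its start sites, 12 at the start site of another gene and 9 in the body of another gene. In total 30 peaks (25%) were within 1000 bp of any annotated start site, a little below the 29.5% of all reference peaks. The summits at other genes' start sites had a median score of 979, those in receptor gene bodies 878, those at receptor start sites 727 and those between genes 654. The ranges of these classes overlapped. Taken over all 120 peaks, the median score was 759 with quartiles of 532 and 1144, close to the 737, 486 and 1153 of the whole catalog, and the median width was 234 bp against 227 bp. Of the 84 extended regions, 23 (27.4%) joined more than 1 peak, against 25.1% of all extended regions.

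**Figure D4:**
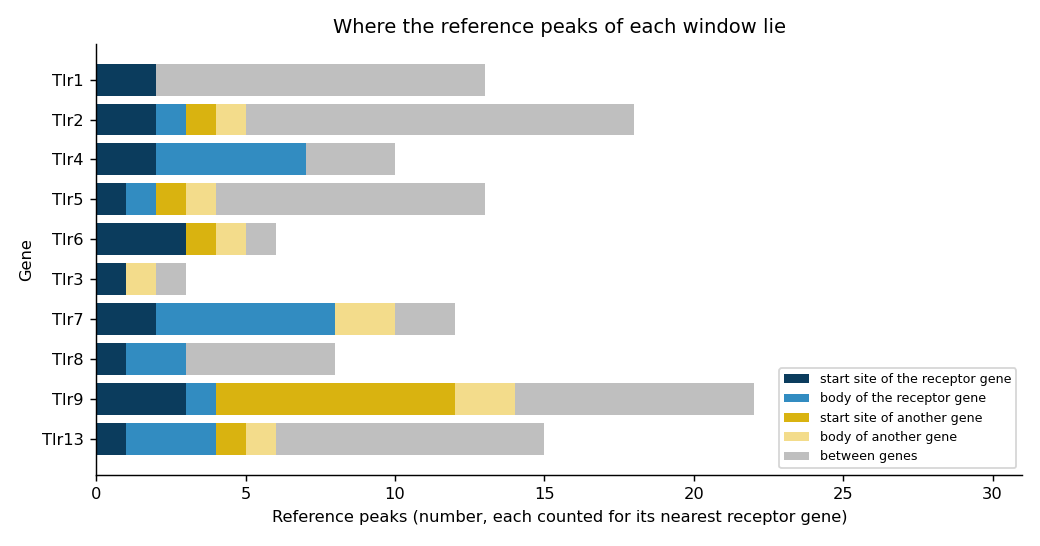
Number of reference peaks (horizontal axis) of each class in the window of each gene, with every peak counted for its nearest Toll-like receptor gene. The peaks between genes prevail at Tlr1, Tlr2, Tlr5, Tlr8 and Tlr13, those in the gene body at Tlr4 and Tlr7, and the 8 peaks at start sites of other genes stand out at Tlr9.

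Among the cell surface receptors, Tlr2 had the highest single summit away from a start site. This peak, with a score of 1929 (chr3:83862993-83863422), lay between genes, 21411 bp upstream of the start site, and exceeded the start site summit itself. A further peak 3600 bp upstream (chr3:83844878-83845574) had 2 summits and a score of 1786. It belonged, with the start site peak, to an extended region of 5735 bp with 4 peaks and 5 summits, the widest of the 84. Peaks of 1518 at 43554 bp upstream and of 1394 in an intron 2154 bp downstream completed the high summits of this gene. The other 13 Tlr2 peaks had scores from 147 to 911.

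Tlr4 was arranged differently, with 7 of its 10 peaks in the gene body. Apart from that over the start site, these lay in introns, and their scores were 1164 at 1270 bp, 1357 at 15879 bp, 1272 at 24584 bp, 367 at 27161 bp, 1025 at 29644 bp and 889 at 67131 bp downstream of the start site. The 3 upstream peaks had scores of 583, 448 and 242, within or below the range of the intronic peaks. The intronic peak at 24584 bp (chr4:66852084-66852324) is that with the PU.1/ETS and STAT6 matches printed above. The highest summit of the window was that of the start site, as also at Tlr6 and at no other member.

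Tlr1 and Tlr6, which lie on the same strand of chromosome 5 with 18467 bp between them, shared 10 peaks. None of these lay wholly between the genes, but the peak over the Tlr1 start site had its summit 66 bp upstream of that gene. Downstream of Tlr1, 5 peaks between 46242 and 49867 bp from its start site formed an extended region of 5342 bp with scores of 1851, 1683, 867, 623 and 349. This region lay at the edge of the window. The near edge of its outermost peak (349) was 49803 bp from the start site, and that of the nearest peak outside the Tlr1 window (583) was 60976 bp from it. At Tlr6 the near edge of the nearest peak outside the window (358) was 50514 bp from the start site and was counted for Tlr1. Tlr6 had 3 peaks within 1000 bp of its start sites (1670, 706 and 307) and another 1591 bp upstream (324) in an extended region of 4119 bp. The remaining high summits of its window belonged to the neighbouring gene Fam114a1, with 1106 over its start site and 1248 in its body, and to the stretch downstream of Tlr1 (1188). Tlr5 had 9 of its 13 peaks between genes, and the highest of these had scores of 1505 downstream of the gene (28420 bp from the start site), 1296 at 3258 bp upstream and 1284 at 31785 bp upstream. The summit of 1619 in its window lay 46248 bp upstream, at the start of the noncoding gene Gm37542.

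Among the endosomal receptors, Tlr9 lay in the most crowded window. 8 of its 22 peaks lay at start sites of the neighbouring genes Ppm1m, Twf2 and Alas1, so that its count was shared with these genes. Its own peaks were the start site peak of 1406, flanked by peaks of 266 at 606 bp upstream and of 823 at 611 bp downstream, in its intron. A peak in the coding exon (chr9:106226292-106226466, score 934) was the only one of the 120 with its summit in coding sequence of a receptor gene. The highest summit of the window (1505, chr9:106229988-106230640) lay between genes, 7526 bp downstream of the start site.

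Tlr3 had 1 peak upstream (1260, 4097 bp from the most upstream start site, chr8:45415036-45415277), the start site peak of 748 and a peak of 769 in the body of Fam149a, 43737 bp downstream. The scores of all 3 were at or above 737, the median of the catalog. The next peak beyond the window lay 77174 bp away and had a score of 1480.

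Tlr7, a receptor for single-stranded RNA, and its close relative Tlr8 are neighbours on chromosome X with start sites 66229 bp apart and 40599 bp between the genes. They shared no peak, and only 1 lay between them (chrX:167276669-167276820, score 759, 12422 bp upstream of Tlr8), with a PU.1/ETS match. Tlr7 had 8 of its 12 peaks in its body. The highest of these had scores of 1381 at 1839 bp and 1153 at 14531 bp from the start site, each above the start site summit of 654. At Tlr8 the highest summit was 1619, at 34807 bp downstream of the start site (chrX:167229278-167229744), in an extended region of 3551 bp with peaks of 1002 and 367. The peaks in the body of Tlr8 were low (644 and 349).

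Tlr13, the sensor of bacterial ribosomal RNA, had 4 peaks between 6765 and 8175 bp upstream of its start site that joined into an extended region of 3067 bp. Their scores were 1272, 1153, 945 and 341, so that 3 of them exceeded the start site summit of 759. The score of 1890, the highest of the window, belonged to the start site of Pgk1, a glycolytic gene 43738 bp away, and not to Tlr13. The body of Tlr13 held intronic peaks of 759, 727 and 341.

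The sequence of the peaks allowed reads to be placed. For each of the 120 peaks, the 76 bases around the highest summit and the central 38 bases occurred once on the primary chromosomes. Of the 76-base stretches in the gene bodies, between 94.29% (Tlr4) and 100% (Tlr2 and Tlr9) occurred once in 9 of the members, and 73.25% at Tlr8. Reads of that length from the rest of the Tlr8 body match more than 1 place, and whether peaks were missed there was not tested.

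Motifs were searched as exact words, on either strand, in the 100 bp to each side of a peak's highest summit. A match describes the sequence and not the binding of a factor. Matches of different motifs overlapped in 1 window, for CTCF and NF-kB near Tlr2. AP-1 words (TGACTCA or TGAGTCA) were found at 22 of 120 peaks (18.3%, 95% Wilson interval 12.4 to 26.2%), compared with 16.2% of all reference peaks. C/EBP words (TTGCNNAA) were found at 18 peaks (15%, 9.7 to 22.5%), compared with 11.4%. The word GAGGAAGT of PU.1 and related ETS factors, which mark macrophage enhancers, was found at 10 peaks (8.33%, 4.59 to 14.7%), compared with 9.22%. These shares were thus near those of the catalog.

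The other words were as follows. RUNX words (TGTGGTT) were found at 11 peaks (9.17%), compared with 8.01% of all reference peaks. NF-kB words were found at 6 peaks (5%), compared with 5.57%. IRF words were found at 4 peaks (3.33%), compared with 2.39%. SP/KLF words (GGGGCGGG) were found at 4 peaks (3.33%), compared with 6.44%, and only that at Tlr5 was at a receptor start site, the others being at Fam114a1, Twf2 and Pgk1. CTCF words were found at 3 peaks (2.5%), compared with 3.09%, STAT6 words at 1 peak (0.833%), compared with 1.19%, and cAMP response elements (TGACGTCA) at none (upper limit 3.1%), compared with 0.927%. The interval of each of these shares included the share in the catalog. The NF-kB peaks were the start site of Tlr2, the intron of Tlr9 and peaks between genes near Tlr1, Tlr2, Tlr5 and Tlr9, and the IRF peaks lay near Tlr1, Tlr2, Tlr6 and Tlr8.

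The GAS word (TTCNNNGAA), bound by STAT dimers, was found at 15 peaks (12.5%, 7.72 to 19.6%), compared with 6.40% of all reference peaks. It was the only word of 11 whose interval left out the share in the catalog, and the intervals were not widened for the 11 words. 6 of the 15 peaks were among the 19 around Tlr1 and Tlr6. The other 101 peaks held 9 (8.91%, 4.76 to 16.1%), an interval over fewer peaks that included 6.40%. That locus was set apart after its peaks were seen, so the lower share of the rest is a description. Among the peaks with a summit at or above the median score the GAS word was present at 6.25% of those of the family, compared with 6.27% of all such reference peaks. Within 50 bp of the summit the shares were 5.83% and 3.22%, and within 200 bp 19.2% and 12.2%. The intervals cover counting error only, and neighbouring peaks of a locus are not independent.

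**Figure D5:**
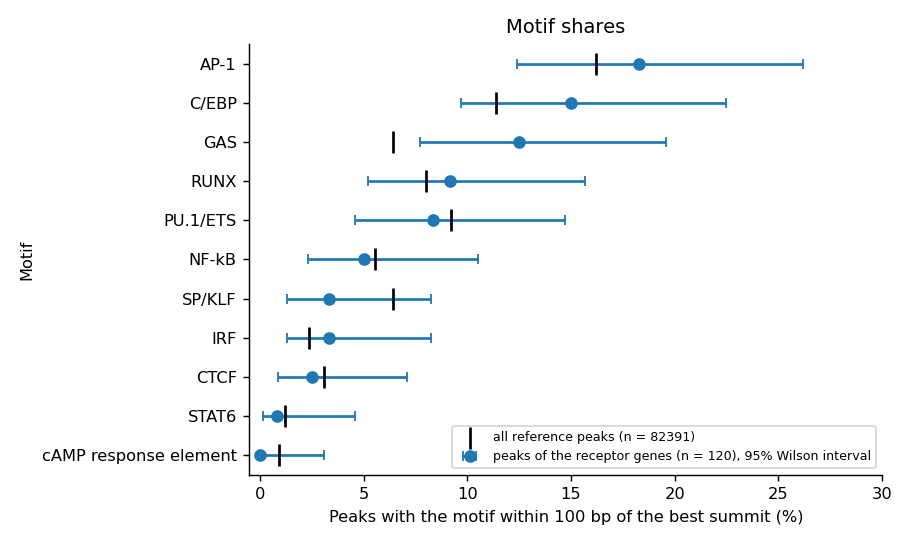
Share of the 120 reference peaks of the Toll-like receptor genes that held each motif in the 100 bp to each side of the highest summit (points, horizontal axis in %, with 95% Wilson intervals), and the share of all 82391 reference peaks (vertical ticks). The tick lies inside the interval for 10 motifs and below it for GAS.

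At the start site summits the receptor genes held different words. The PU.1/ETS word was found at 2 of the 10 highest start site summits (Tlr6 and Tlr9), compared with 3.97% of those of all protein-coding genes, and also in the lower peak over the start site of Tlr1. The C/EBP word was found at 4 of 10 (Tlr1, Tlr7, Tlr8 and Tlr13), compared with 5.77%. The SP/KLF word, common at CpG-rich promoters, was found at 1 of 10 (Tlr5), compared with 28.0%. Tlr2 held an NF-kB word, Tlr6 a GAS word and Tlr9 an AP-1 word, compared with 4.11%, 4.42% and 4.67% of the start site summits of all genes. Tlr3 and Tlr4 held none of the 11, as did 50.3% of those summits. With 10 summits these are counts of single genes. Over all 120 peaks, 44 held none of the 11 words (36.7%), compared with 44.8% of all reference peaks. In the RefSeq promoter sequences (250 bases before to 50 after a start), which were found for 8 of 10 members (all but Tlr4 and Tlr7), the PU.1/ETS word was present for 2 (Tlr1 and Tlr9), compared with 3.69% of 27025 genes. The C/EBP word was present for 4 (Tlr3, Tlr6, Tlr8 and Tlr13), compared with 12.2%, and of these Tlr8 and Tlr13 also held it at the highest start site summit. The GAS word was present for 3 (Tlr1, Tlr6 and Tlr8), compared with 9.55%, and the NF-kB word for 2 (Tlr2 and Tlr3), compared with 5.14%. The AP-1 word (Tlr9), the IRF word (Tlr6) and the RUNX word (Tlr6) were each present for 1, compared with 5.95%, 0.969% and 6.09%. The SP/KLF word was present for none, compared with 18.4%, and the STAT6, CRE and CTCF words were also absent. Among the 90 peaks farther than 1000 bp from any start site the PU.1/ETS word was present at 7 (7.78%), compared with 10.8% of all such peaks.

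The genes that work with the receptors were also accessible at their start sites, by the same rule and against the same 56.5%. All 6 co-receptor and ligand transfer genes had a start site peak, with scores from 402 at Cd36, a scavenger receptor that cooperates with Tlr2, to 1683 at Cd14, which passes LPS to Tlr4. The value was 1129 at Ly96, which encodes the MD-2 subunit of the LPS receptor. All 4 chaperone and trafficking genes had one, from 1670 at Slc15a4 to 2153 at Hsp90b1, the chaperone gp96, with 1734 at Unc93b1, which carries the nucleic acid receptors to endosomes. All 5 adaptors had one, from 1260 at Ticam2 to 2114 at Myd88, the adaptor of all members but Tlr3, with 2061 at Ticam1, the adaptor of Tlr3. All 3 negative regulators had one (Tollip 1568, Irak3 1224 and Sigirr 834). The median start site score was 1864 over the chaperones, 1468 over the adaptors, 1224 over the negative regulators and 869 over the co-receptors. The co-receptors were nearest to the 846 of the receptors themselves.

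The label of the cells was checked with marker genes. All 10 macrophage markers had a start site peak (median score 1499), as did 6 of 18 markers of other cell types (Mmp8, Camp, Ms4a1, Col1a1, Pdgfra and Cdh5), compared with 56.5% of all protein-coding genes. The scores at these 6 genes ranged from 402 to 1721, the highest at Cdh5, with a median of 984. None of the T cell or erythroid markers did. Whether cells of other types contributed to the peaks of the receptor genes was not tested.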

How the data were processed

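ATAC-seq reads of BMDMs (single-end, 76 bases) were processed by the authors with BBDuk, Trimmomatic 0.39, the mapping step of ShortStack (mm10), SAMtools 1.9 and MACS2 2.2.6, the versions being those in the submitters' processing notes. Duplicates were kept and no local background was used. Peaks were retained where they passed a strict limit on the q-value of the peak caller and overlapped by at least 50% between replicates. A site that failed either rule is absent from the lists, so a missing peak does not by itself mean closed chromatin. The methods name no shift of reads to the cut made by Tn5, so that summits can lie beside the site of insertion, and kept duplicates can raise a height.

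The deposited files were 3 BED lists. Reference peaks and extended regions (peaks widened by 700 bp and joined where they touched) hold positions alone. Each summit has a score, deposited by the authors without a stated scale. The lists give no value for single libraries, and 0 of their columns came from samples of another series, so that depth and its precision are unknown and stimuli, times and replicates could not be compared.

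Genes came from GENCODE M21, promoters from RefSeq and sequence from GRCm38.p6, whose primary chromosomes share the mm10 coordinates. A peak belonged to a gene where it overlapped the gene body or lay within 50 kb of the most upstream start site. Start site peaks lay within 1000 bp of any annotated start site of the gene. All protein-coding genes were treated alike. A peak took the highest score of its summits, and 11 motif words were looked for on either strand in the 100 bp to each side, with 95% Wilson intervals. Python 3.11.15 (numpy 2.4.6, pandas 2.3.3, matplotlib 3.10.9) was used, and the counting was tested on simulated data. The members and the gene and motif lists were chosen with earlier results of these data known. The text names the members, their partner genes by list, and neighbouring genes that own a peak. The alternatives were other windows, other choices of summit and a minimum score.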

Additional observations from a re-analysis of the deposited data

How the results depend on the processing

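All 10 members kept a start site peak with a window of 2500 bp, with the most upstream start site alone and with a summit inside the window. With 500 bp Tlr5 lost it (9), and with summits at or above the median score Tlr1, Tlr7 and Tlr8 did (7). The shares of all protein-coding genes were 59.9% with 2500 bp, 54.9% with 500 bp and 50.7% with the limit on the score. For the most upstream start site alone and for a summit inside the window that share was not computed, so those counts have no background. The median start site score was 748 with 500 bp, 754 with the nearest summit and 1158 with 2500 bp. The number of reference peaks fell from 120 to 70 with a window of 20000 bp and to 64 with summits at or above the median score, and that of extended regions from 84 to 50 and to 52. With 100000 bp they were 176 and 120. The PU.1/ETS share was 3.33% within 50 bp of the summit, where all reference peaks had 6.55%. The GAS share was 5.83% within 50 bp and 6.25% at summits at or above the median score. Of the 39 alternative values of these results and of the PU.1/ETS, AP-1, NF-kB and GAS shares, 32 stayed within 1.5 times the main count or within the interval of the share or median. These limits were wide. The interval of the median, 593 to 1877, came from the members' own scores and covered most of their range, so the median could hardly leave it. A fall from 10 to 7 members with a start site peak also counted as unmoved. The peak counts of single genes were less stable, and 18 of 30 moved by more than 1.5 times, among them Tlr1 (19 to 4 within 20000 bp), Tlr6 (10 to 27 within 100000 bp) and Tlr8 (8 to 35 within 100000 bp). The shares of the other 7 words were not varied. All alternatives for the GAS share were chosen after seeing the data. No paired analysis was possible because the lists hold no values per library. For the same reason no replicate could be left out, and depth limits could not be derived.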

Other observations

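The mouse genome carries further Toll-like receptor genes that were kept out of the family above. Tlr11, a receptor for profilin and flagellin, had a start site peak with a score of 769 and no other peak in its window. Tlr12, its partner in the recognition of profilin, had none, and the nearest summit was 5144 bp from its start site, although its window held 5 peaks.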
